A study of Drosophila melanogaster with 12 samples.

Results

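The transcriptome of entire lglRNAi;RasV12 salivary glands was compared with that of entire RasV12 salivary glands of Drosophila melanogaster larvae at 96 hr after egg deposition (AED), to describe what lowering l(2)gl added to an active Ras. The libraries were taken by their labels and not by any measured value. They were 6 of the 12 libraries of the series, 3 from lglRNAi;RasV12-glands and 3 from RasV12-glands. The other 3 libraries of entire w1118-glands are given as levels beside the comparison, and 3 libraries came from a dissected part of lglRNAi;RasV12-glands. Neither set was compared here, but both entered the filter on low counts and the estimate of the spread behind each p-value.

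By the sample labels, females carrying w1118,BxGal4;;Drs-GFP were the mothers in each cross. The list of crosses that accompanies the study differs from the labels, and gives such mothers for the transcriptome of lglRNAi;RasV12-glands but mothers carrying w1118,BxGal4 without the reporter for that of RasV12- and w1118-glands. The fathers were w1118;UAS-l(2)glRNAi;UAS-RasV12 for lglRNAi;RasV12-glands, w1118;;UAS-RasV12 for RasV12-glands and plain w1118 for w1118-glands. All larvae therefore carried the driver and were reared on food with antibiotics, while the sources disagree on whether RasV12 and w1118 larvae carried the Drs-GFP reporter. The BxGal4 enhancer trap drives expression across the secretory epithelium of the gland, and each library was a pool of many pairs of glands. By the notation of the cross the RNAi construct lies on chromosome 2, and the number of its insertions was not tested. The crosses therefore differed in the paternal chromosome 2 as well as in l(2)gl. If the list of crosses holds, they also differed in the reporter and the maternal chromosome 3. Parents of different genotypes may have differed on their other chromosomes too. These differences cannot be told apart in any value below. The lglRNAi;RasV12 larvae also carried an additional UAS transgene for the same driver.

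The larval salivary gland is a tube of large polyploid cells that stop dividing in the embryo, grow by repeated DNA replication and fill with glue protein under control of the steroid ecdysone. l(2)gl encodes a scaffold of the basolateral cell cortex that works with scrib and dlg1 and is a classical tumour suppressor of dividing imaginal discs. Active Ras signals through the Raf-MAPK cascade, which induces its own feedback inhibitors, and in discs it cooperates with loss of cell polarity in tumour growth.

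Libraries held 30516609 to 48540724 estimated counts in lglRNAi;RasV12-glands and 33240912 to 36122132 in RasV12-glands. Levels are given as counts per 1000000 (CPM), where 3 counts, taken as the floor, were worth 0.0585 to 0.0934 CPM over the lglRNAi;RasV12 libraries, against 0.0777 to 0.0821 CPM over the RasV12 libraries, for counting error only. Gland markers were high in every library, with 7 of 7 above the floor and a summed level of 49775 to 58825 CPM in lglRNAi;RasV12-glands, against 42409 to 58102 CPM in RasV12-glands. Markers of the larval fat body, a tissue that lies against the gland, summed to 33568, 31407 and 25154 CPM in lglRNAi;RasV12-glands, against 18149, 26104 and 16864 CPM in RasV12-glands. Hemocyte markers (6 genes) summed to 51.8, 20.6 and 33.0 CPM in lglRNAi;RasV12-glands, against 19.8, 19.5 and 15.1 CPM in RasV12-glands. In w1118-glands the fat body markers summed to 45851, 84909 and 40344 CPM and the hemocyte markers to 38.5, 34.9 and 32.6 CPM. None of these 6 fat body and 6 hemocyte markers was called, but all 12 had a positive log2 fold change. A longer list of 16 hemocyte genes summed to 408, 274 and 322 CPM in lglRNAi;RasV12-glands, against 353, 339 and 290 CPM in RasV12-glands. In that list the groups overlapped, and of 14 genes tested 12 had a positive and 2 a negative log2 fold change. The part of other tissues in the results below was not tested.

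l(2)gl (2L:9839-21376, minus strand, dm6) was lower in lglRNAi;RasV12-glands. It was at 191, 148 and 162 CPM in lglRNAi;RasV12-glands, against 264, 244 and 286 CPM in RasV12-glands. The groups did not overlap, and the log2 fold change was -0.66 (SE 0.14, adjusted p = 0.013, edgeR). In w1118-glands l(2)gl averaged 162 CPM, close to the level of the lglRNAi;RasV12-glands. The adjusted p was past 0.05 without RasV12 replicate 3 (0.0553), lglRNAi;RasV12 replicate 2 (0.0607) or replicate 3 (0.0579), with log2 fold changes of -0.60, -0.59 and -0.64. Any reads of the RNAi hairpin would have been counted to the gene.

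Over its transcripts the estimated counts of l(2)gl were unevenly lower, and since these isoforms share most of their sequence their split is uncertain. Transcript FBtr0306589 had 18.8, 0.1 and 228.6 estimated counts in lglRNAi;RasV12-glands, against 1091.2, 1231.8 and 1412.3 in RasV12-glands. The transcript with most counts in RasV12-glands, FBtr0078170, had 3888.3, 2161.7 and 2488.7 in lglRNAi;RasV12-glands, against 4707.1, 4266.7 and 3854.9 in RasV12-glands. FBtr0078171 had 2164.6, 1057.2 and 760.1 in lglRNAi;RasV12-glands, against 875.4, 658.1 and 800.6 in RasV12-glands, so not every isoform was lower. These counts are not scaled to library size, which was largest in lglRNAi;RasV12 replicate 1 (48540724 estimated counts). No test was run on single transcripts.

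Ras85D, to which reads of the RasV12 transgene are counted, was at 2041, 2426 and 2524 CPM in lglRNAi;RasV12-glands, against 3116, 2764 and 3455 CPM in RasV12-glands. Every lglRNAi;RasV12 library lay below every RasV12 library, with a log2 fold change of -0.42 (SE 0.14), but the adjusted p of 0.067 missed the threshold. Both groups stood far above w1118-glands, at a mean of 63.9 CPM. Drosomycin (Drs), an antifungal peptide whose regulatory sequence drives the reporter, was at 1495, 1779 and 1676 CPM in lglRNAi;RasV12-glands, against 1341, 1458 and 1798 CPM in RasV12-glands. Its log2 fold change was 0.11 (SE 0.45, adjusted p = 0.90), and the groups overlapped. tio, a gene on 2L looked up with the constructs, was at most 0.371 CPM in lglRNAi;RasV12-glands and at most 0.285 CPM in RasV12-glands.

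**Figure D1:**
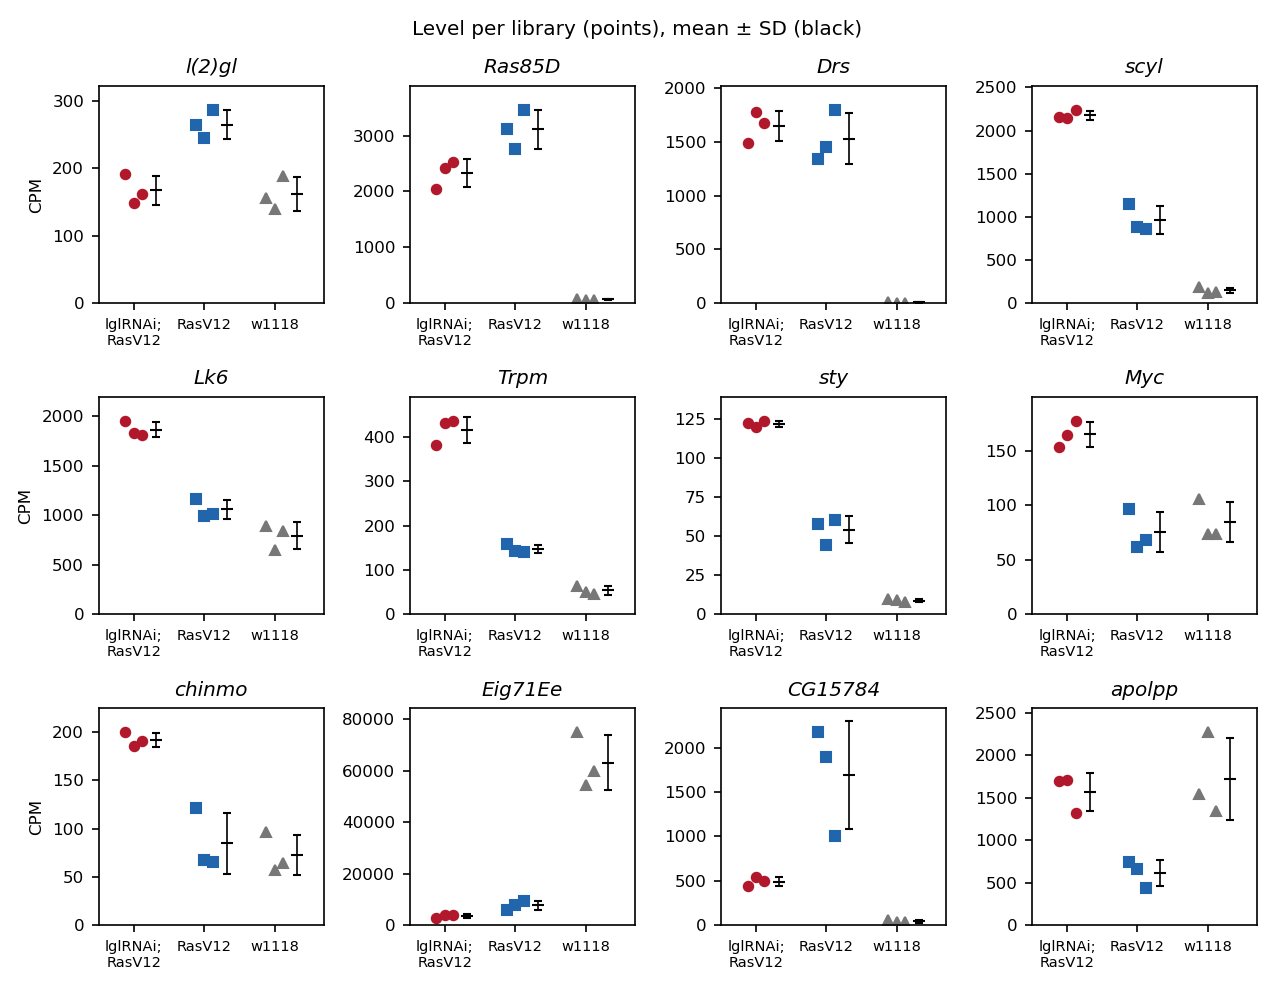
Levels of 12 genes in CPM, with 1 point per library and the mean ± SD in black (n = 3), for lglRNAi;RasV12-glands (circles), RasV12-glands (squares) and w1118-glands (triangles). The vertical axes are linear and start at 0. l(2)gl, Eig71Ee and CG15784 were lower and scyl, Lk6, Trpm, sty, Myc, chinmo and apolpp higher in lglRNAi;RasV12-glands than in RasV12-glands, while Drs overlapped.

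Few genes were called, and most changes were small. A gene was called at an adjusted p of at most 0.05 and an absolute log2 fold change of at least 1. Of 9012 genes tested, 182 (2.02%) were called higher and 117 (1.30%) lower in lglRNAi;RasV12-glands, together 299 (3.32%). By the adjusted p alone 1108 genes (12.3%) passed, 647 (7.18%) of them higher and 461 (5.12%) lower. The median log2 fold change over all genes tested was 0.01, and 78.7% of genes moved by less than 0.5 on the log2 scale. The 3 libraries of each group did not overlap in 36.6% of the genes tested.

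Genes expressed in both crosses made up most of the calls, but also most of the genes tested. Mean levels were above 1 CPM in both groups for 7431 genes, of which 126 (1.70%) were called higher and 64 (0.861%) lower in lglRNAi;RasV12-glands. Together these were 190 (2.56%), a smaller share than the 3.32% over all genes tested. The median absolute log2 fold change of these 190 genes was 1.29, and 14 of them reached 2. A further 70 of 291 genes above 1 CPM in only 1 group and 39 of 1290 in neither were called, with medians of 2.05 and 2.12. Without RasV12 replicate 3 the 182 and 126 genes called higher became 110 and 82, and without lglRNAi;RasV12 replicate 3 the 117 called lower became 72.

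**Figure D2:**
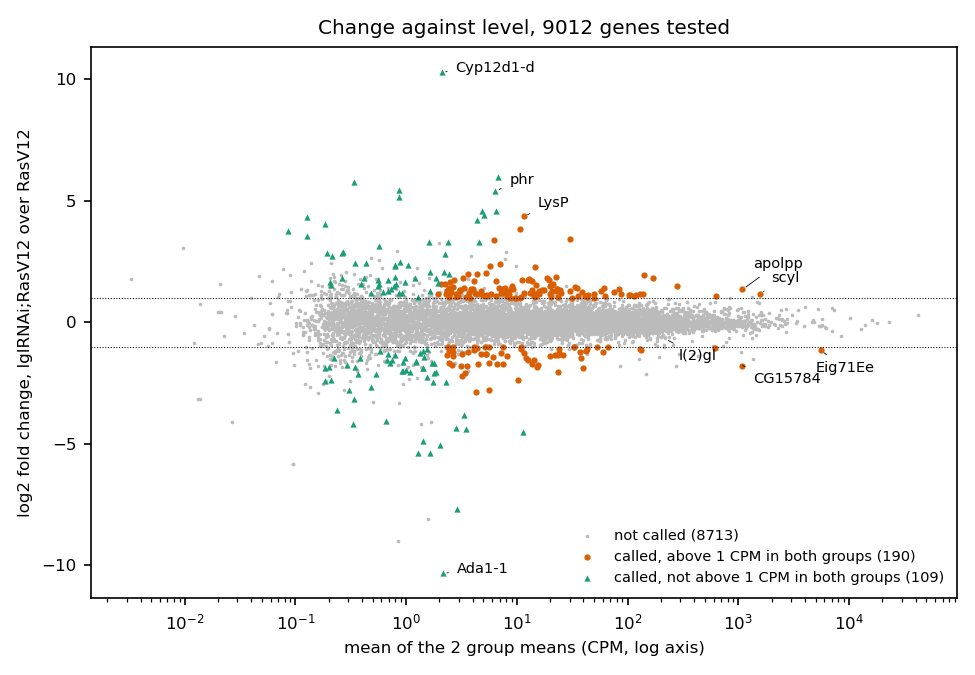
Log2 fold change of lglRNAi;RasV12- over RasV12-glands (vertical) against the mean level in CPM on a log axis (horizontal) for 9012 genes, with called genes in colour and dotted lines at 1 and -1. The 190 called genes above 1 CPM in both groups lie mostly near the dotted lines, and the called extremes, Cyp12d1-d and Ada1-1, are genes without reads in 1 group.

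Among genes above 1 CPM in both groups, the 15 with the largest increase had log2 fold changes between 1.80 and 4.36. At the top was LysP, a lysozyme, at 23.9, 16.4 and 26.0 CPM in lglRNAi;RasV12-glands, against 0.587, 1.32 and 1.31 CPM in RasV12-glands (log2 fold change 4.36, SE 0.39, adjusted p = 5.6e-05). It was also present in w1118-glands, at 13.7 CPM, so its lowest level was that of the RasV12-glands. rtet, a membrane transporter of the major facilitator family, was at 18.8, 19.0 and 21.7 CPM in lglRNAi;RasV12-glands, against 0.827, 1.37 and 1.94 CPM in RasV12-glands. spartin, whose human counterpart is mutated in a hereditary spastic paraplegia, was at 12.0, 10.4 and 11.5 CPM in lglRNAi;RasV12-glands, against 0.427, 1.14 and 1.70 CPM in RasV12-glands. Both rtet (log2 fold change 3.84) and spartin (3.38) were intermediate in w1118-glands, with 7.86 and 5.13 CPM.

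Other genes of this group were low in RasV12- and w1118-glands alike. CG8086 was at 57.5, 52.9 and 54.2 CPM in lglRNAi;RasV12-glands, against 5.49, 5.85 and 3.80 CPM in RasV12-glands (log2 fold change 3.44), beside 7.24 CPM in w1118-glands. tfc was at 13.0, 9.47 and 13.2 CPM in lglRNAi;RasV12-glands, against 2.64, 2.54 and 1.53 CPM in RasV12-glands (2.41), beside 0.169 CPM in w1118-glands. The remaining members by decreasing change were CG10237 (2.33), CG14062 (2.29), CG30283 (2.02), CG14852 (1.97), Rab9 (1.97), Adh (1.94), Dph1 (1.86), smp-30 (1.83), jp (1.81) and Cyp6a14 (1.80), with adjusted p of at most 0.049. CG14852, at 0.049, was the weakest of them and lost its call without any of 5 of the 6 libraries.

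A pair of enzymes and a membrane protein of this group were followed library by library. Adh, the alcohol dehydrogenase, was at 259, 215 and 195 CPM in lglRNAi;RasV12-glands, against 51.7, 73.1 and 49.1 CPM in RasV12-glands. jp, the junctophilin that ties the endoplasmic reticulum to the plasma membrane, was at 308, 228 and 264 CPM in lglRNAi;RasV12-glands, against 95.5, 73.3 and 59.3 CPM in RasV12-glands. Dph1, an enzyme of diphthamide synthesis, was at 25.4, 42.2 and 39.5 CPM in lglRNAi;RasV12-glands, against 10.3, 8.39 and 10.7 CPM in RasV12-glands. For all 3 genes the lglRNAi;RasV12 libraries lay above the RasV12 libraries, and w1118-glands averaged 167, 117 and 26.1 CPM for Adh, jp and Dph1. Rab9, a small GTPase of late endosomes, was at 6.53, 5.76 and 5.20 CPM in lglRNAi;RasV12-glands, against 1.41, 1.17 and 1.89 CPM in RasV12-glands, and smp-30 was at 30.2, 32.5 and 25.5 CPM, against 8.40, 8.21 and 8.13 CPM in RasV12-glands.

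The 15 genes with the largest decrease had log2 fold changes between -2.87 and -1.73. CG4496 was at 0.800, 1.06 and 1.28 CPM in lglRNAi;RasV12-glands, against 5.15, 8.19 and 9.38 CPM in RasV12-glands (log2 fold change -2.87, SE 0.45, adjusted p = 0.0026). Eglp2, a channel of the aquaglyceroporin family, was at 3.26, 3.16 and 3.49 CPM in lglRNAi;RasV12-glands, against 15.1, 13.2 and 23.5 CPM in RasV12-glands (-2.38). The others were CG16826 (-2.77), Dgk (-2.23), CG34280 (-2.10), CG30411 (-2.03), sano (-1.88), CG2003 (-1.83), CG15117 (-1.81), CG9812 (-1.80), CG15784 (-1.79), Lfg (-1.74), CG10663 (-1.74), Grip75 (-1.73) and sev (-1.73). CG10663 (adjusted p = 0.033) and sev (0.023) each lost the call without any of 5 of the 6 libraries.

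Several of these genes were at their highest in RasV12-glands among the entire glands. CG15784 (X:5429571-5432526) was at 436, 539.6 and 496 CPM in lglRNAi;RasV12-glands, against 2175, 1893 and 1002 CPM in RasV12-glands (log2 fold change -1.79, SE 0.27, adjusted p = 0.0019), beside 39.8 CPM in w1118-glands. sano, a planar cell polarity gene, was at 23.7, 11.3 and 15.3 CPM in lglRNAi;RasV12-glands, against 78.0, 55.3 and 52.5 CPM in RasV12-glands, beside 1.45 CPM in w1118-glands. Lfg, of a family of membrane inhibitors of cell death, was at 11.2, 4.00 and 6.07 CPM in lglRNAi;RasV12-glands, against 26.7, 27.6 and 17.5 CPM in RasV12-glands, beside 0.434 CPM in w1118-glands. In each of these 3 genes the lglRNAi;RasV12 level stood between those of RasV12- and w1118-glands. Grip75, a subunit of the gamma-tubulin ring complex, was at 3.30, 2.54 and 3.39 CPM in lglRNAi;RasV12-glands, against 10.1, 9.84 and 10.7 CPM in RasV12-glands. sev, the receptor tyrosine kinase of photoreceptor fate, was at 3.61, 2.60 and 4.26 CPM in lglRNAi;RasV12-glands, against 13.8, 13.2 and 7.66 CPM in RasV12-glands.

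**Figure D3:**
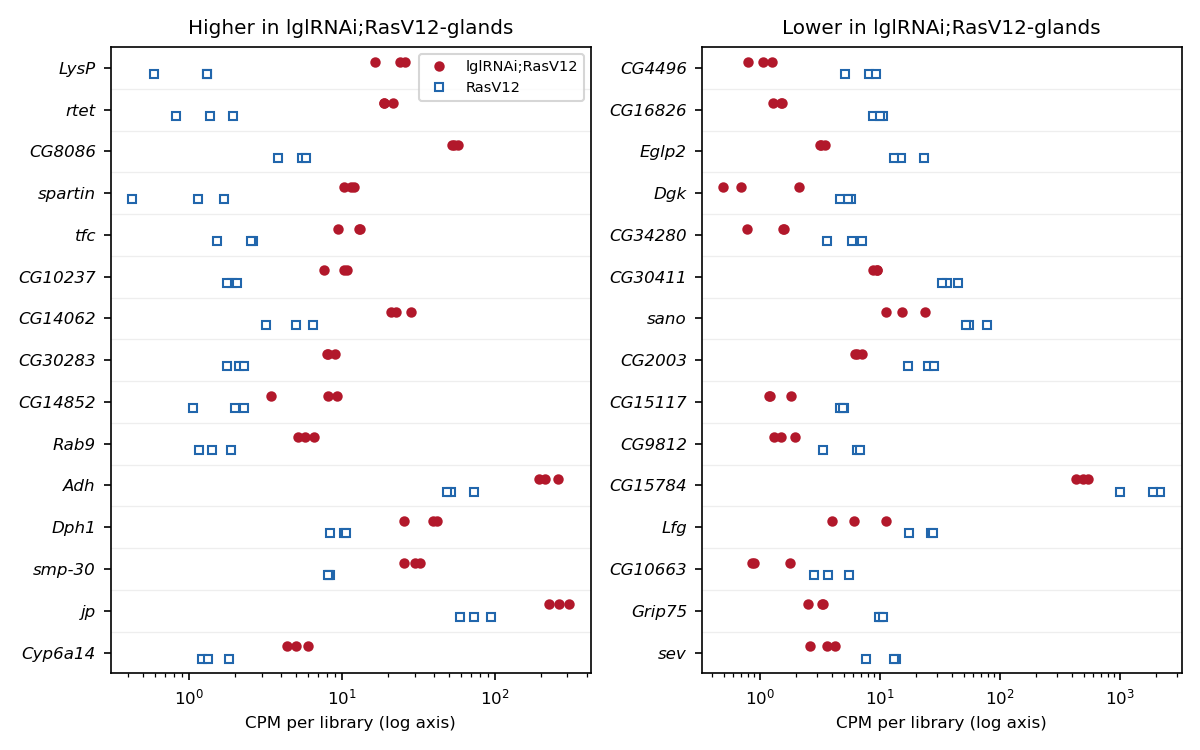
Level in CPM of each library on a log axis for the 15 genes with the largest increase (left panel) and the largest decrease (right panel) among called genes above 1 CPM in both groups, lglRNAi;RasV12-glands as filled circles and RasV12-glands as open squares. For every gene drawn the 3 libraries of the groups are separate, which was a condition for its choice.

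Several abundant called genes in the next sentences were chosen after their values were seen. scyl (3L:11252307-11256172), a stress-induced inhibitor of TOR signalling, was at 2152, 2146 and 2237 CPM in lglRNAi;RasV12-glands, against 1146, 883 and 859.5 CPM in RasV12-glands (log2 fold change 1.18, SE 0.16, adjusted p = 0.0011), beside 146 CPM in w1118-glands. Trpm, a cation channel for magnesium and zinc, was at 383, 431 and 437 CPM in lglRNAi;RasV12-glands, against 158, 142 and 141 CPM in RasV12-glands (1.50), beside 53.5 CPM in w1118-glands. pio, a zona pellucida domain protein of the apical matrix, was at 708, 935 and 907 CPM in lglRNAi;RasV12-glands, against 418, 373 and 424 CPM in RasV12-glands (1.07), beside 174 CPM in w1118-glands. These 3 genes were thus highest in lglRNAi;RasV12-glands and lowest in w1118-glands.

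In the other direction, NT5E-2, an ecto-nucleotidase, was at 378, 405 and 428 CPM in lglRNAi;RasV12-glands, against 858, 854 and 806 CPM in RasV12-glands (log2 fold change -1.06, SE 0.14, adjusted p = 0.00076). Its level in w1118-glands was 2078 CPM. Myo61F, an unconventional class I myosin, was at 81.7, 83.0 and 81.9 CPM in lglRNAi;RasV12-glands, against 178, 191 and 174 CPM in RasV12-glands (-1.14). Both were chosen after their values were seen, and both had narrow groups that did not overlap.

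The next 3 genes, Lk6, Thor and crc, passed the adjusted p without reaching a log2 fold change of 1, and they too were picked after their values were seen, from no list. Lk6, the kinase of the cap-binding factor of translation, was at 1949, 1834 and 1809 CPM in lglRNAi;RasV12-glands, against 1167, 991 and 1012 CPM in RasV12-glands (log2 fold change 0.82, adjusted p = 0.0018). Thor, which represses the same cap-binding factor, was at 1014, 1026 and 962 CPM in lglRNAi;RasV12-glands, against 627, 713 and 619.8 CPM in RasV12-glands (0.61, adjusted p = 0.013). crc, the transcription factor of the integrated stress response, was at 755, 830.1 and 839.8 CPM in lglRNAi;RasV12-glands, against 598, 585 and 549.9 CPM in RasV12-glands (0.48, adjusted p = 0.0062). In all 3 the groups were separate.

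Gene lists for pathways, tissues and cell types held 559 genes in 30 lists, of which 491 passed the filter on low counts, 19 were called higher and 7 lower. The share called was 5.30%, against 3.32% over all genes tested, and 13 of the 30 lists had no call. The lists were written with earlier results of these data known. The median log2 fold change of the 491 genes was 0.09. Leaving out 1 library removed the call of et, Tsp2A, AttA and apolpp for 4 of the 6 libraries, of chinmo, TotC, Orc6, Ndg, Ppn and GstD2 for 5, of Blimp-1 for 3, and of Eig71Ee, Myc and bnl for 1.

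**Figure D4:**
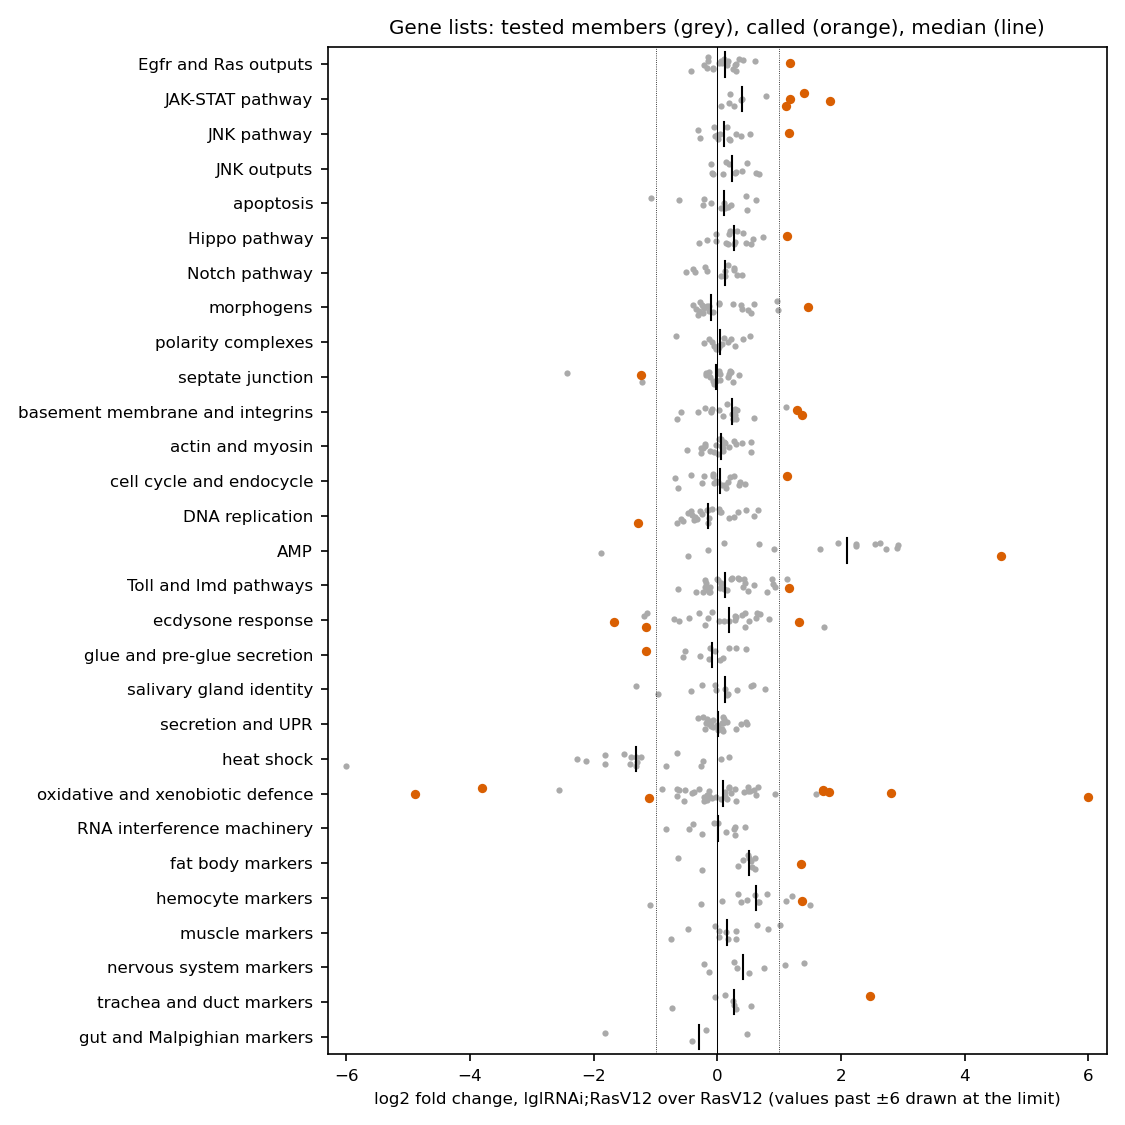
Log2 fold change of lglRNAi;RasV12- over RasV12-glands for each tested member of 29 gene lists, with called members in orange, the others in grey and the list's median as a black line. Values past 6 in either direction are drawn at the limit. Most lists centre near 0, while the AMP list is centred at 2.10 and the heat shock list at -1.32, each with a wide spread. The part of lglRNAi;RasV12 replicate 1 in the AMP median was not tested.

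Outputs of Egfr and Ras signalling were examined since the RasV12 transgene is common to both groups. Of 23 genes, 22 were tested, 1 was called higher, 4 passed the adjusted p as higher and none as lower, with a median of 0.13. The called gene was sty (sprouty), a feedback inhibitor of receptor tyrosine kinase signalling, at 122, 120 and 124 CPM in lglRNAi;RasV12-glands, against 57.8, 44.1 and 60.2 CPM in RasV12-glands (log2 fold change 1.17, SE 0.13, adjusted p = 0.00024), beside 8.63 CPM in w1118-glands. It kept its call in all 15 alternative fits. Another feedback inhibitor, the secreted Egfr antagonist aos, was at 17.9, 22.7 and 22.3 CPM in lglRNAi;RasV12-glands, against 16.5, 14.9 and 21.1 CPM in RasV12-glands (0.26, adjusted p = 0.47). The repressor cic, which Ras signalling inactivates, was at 228, 206 and 218 CPM in lglRNAi;RasV12-glands, against 162, 120 and 145 CPM in RasV12-glands (0.61, adjusted p = 0.027). The rise of sty stood beside a Ras85D level that was not higher in lglRNAi;RasV12-glands.

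JAK-STAT genes (15 in the list, 11 tested) all had positive log2 fold changes, with 4 called higher and a median of 0.40. Over all genes tested 2.02% were called higher, and the median was 0.01. chinmo, a transcription factor and STAT target, was at 200, 186 and 191 CPM in lglRNAi;RasV12-glands, against 121, 67.7 and 65.1 CPM in RasV12-glands (log2 fold change 1.18, adjusted p = 0.022). The Turandot stress peptide gene TotA was at 114, 81.3 and 73.2 CPM in lglRNAi;RasV12-glands, against 28.3, 50.3 and 23.5 CPM in RasV12-glands (1.39, adjusted p = 0.0096). TotC (1.82) and the receptor antagonist et (1.10) were called at levels of at most 2.96 and 3.80 CPM in lglRNAi;RasV12-glands. In w1118-glands chinmo, TotA, TotC and et averaged 72.9, 84.5, 0.794 and 4.12 CPM. The ligand gene upd3 was at 19.5, 12.7 and 13.3 CPM in lglRNAi;RasV12-glands, against 14.4, 12.1 and 8.21 CPM in RasV12-glands (0.40, adjusted p = 0.44), and the transcription factor gene Stat92E was at 142, 149 and 145 CPM, against 107, 98.8 and 126 CPM in RasV12-glands (0.39, adjusted p = 0.024). Calls in this list fell to 1 without RasV12 replicate 3, lglRNAi;RasV12 replicate 1 or lglRNAi;RasV12 replicate 2. TotA is also made by the fat body, whose summed markers were higher in lglRNAi;RasV12-glands, and the part of this was not tested.

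JNK signalling, a pathway linked to loss of polarity in discs, showed 1 call. In the pathway list (14 tested) Tab2, an adaptor of the kinase Tak1, was at 149, 203 and 190.1 CPM in lglRNAi;RasV12-glands, against 81.3, 77.3 and 83.5 CPM in RasV12-glands (log2 fold change 1.16, SE 0.16, adjusted p = 0.0010), beside 253 CPM in w1118-glands. None of 12 tested JNK outputs was called or passed the adjusted p, with a median of 0.23. puc, the phosphatase induced by JNK, was at 303, 214 and 219.6 CPM in lglRNAi;RasV12-glands, against 228, 179.9 and 191 CPM in RasV12-glands (0.30, SE 0.19, adjusted p = 0.33). The matrix metalloproteinase gene Mmp1 was at 759, 328 and 441 CPM in lglRNAi;RasV12-glands, against 521, 339 and 242 CPM in RasV12-glands (0.47, SE 0.39, adjusted p = 0.46). kay, the Drosophila Fos, was at 619.6, 306 and 381 CPM in lglRNAi;RasV12-glands, against 381, 234 and 295 CPM in RasV12-glands (0.52, SE 0.25, adjusted p = 0.20). Replicate 1 was the highest library of each group for puc, Mmp1 and kay alike, and the groups overlapped.

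No apoptosis gene (13 tested) was called. Debcl, a Bcl-2 family gene, was the 1 member past the adjusted p, at 36.8, 36.6 and 37.96 CPM in lglRNAi;RasV12-glands, against 27.5, 27.1 and 25.1 CPM in RasV12-glands (log2 fold change 0.48, adjusted p = 0.0059). Diap1, the inhibitor of caspases, was at 714, 408 and 502 CPM in lglRNAi;RasV12-glands, against 437, 358 and 379.9 CPM in RasV12-glands (0.47, adjusted p = 0.15).

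Genes that act with l(2)gl in polarity were close to their RasV12 levels. Of 16 polarity genes tested none was called, and the median was 0.04. Besides l(2)gl only kst, the apical spectrin partner of crumbs, passed the adjusted p, at 932, 845 and 861 CPM in lglRNAi;RasV12-glands, against 642, 594 and 592 CPM in RasV12-glands (log2 fold change 0.53, adjusted p = 0.0032). Septate junction genes (19 tested) had a median of -0.01 and 1 call, Tsp2A, a component of smooth septate junctions of the gut, at 3.35, 1.48 and 1.59 CPM in lglRNAi;RasV12-glands, against 6.32, 5.28 and 3.64 CPM in RasV12-glands (-1.23, adjusted p = 0.029).

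Matrix and cytoskeleton genes moved little. Of 21 genes of the basement membrane and its integrins, Ndg (nidogen) and Ppn (papilin) were called higher, with log2 fold changes of 1.29 and 1.37. Ndg was at 2.34, 2.38 and 2.33 CPM in lglRNAi;RasV12-glands, against 1.04, 1.32 and 0.520 CPM in RasV12-glands. Ppn, which hemocytes also secrete, was at 19.7, 6.37 and 12.5 CPM in lglRNAi;RasV12-glands, against 4.80, 5.23 and 4.92 CPM in RasV12-glands, in the same order of lglRNAi;RasV12 libraries as the hemocyte markers. Each of the 2 lost its call without any of 5 of the 6 libraries, replicate 1 of lglRNAi;RasV12 among them. The integrin gene scb was at 2123, 1525 and 1659 CPM in lglRNAi;RasV12-glands, against 1579, 1467 and 1235 CPM in RasV12-glands (0.31, adjusted p = 0.31). None of 23 actin and myosin genes tested passed the adjusted p, with a median of 0.05, and the filamin gene cher was at 2367, 2323 and 2346 CPM in lglRNAi;RasV12-glands, against 2309, 1981 and 1902 CPM in RasV12-glands (0.18, adjusted p = 0.36).

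Growth genes gave 1 increase of a central regulator. Myc, the growth-promoting transcription factor, was at 153, 164 and 177 CPM in lglRNAi;RasV12-glands, against 96.5, 61.7 and 68.4 CPM in RasV12-glands (log2 fold change 1.13, SE 0.18, adjusted p = 0.0026), beside 84.3 CPM in w1118-glands. It stood in the lists for Hippo signalling (17 tested) and for the cell cycle and endocycle (20 tested) and was the 1 call of each. Without RasV12 replicate 2 its log2 fold change was 0.99 and it was no longer called. CycD, a growth-promoting cyclin, was at 48.5, 54.8 and 60.1 CPM in lglRNAi;RasV12-glands, against 41.2, 41.2 and 45.7 CPM in RasV12-glands (0.35, adjusted p = 0.029).

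DNA replication genes (26 tested) had a median of -0.15, with 17 negative and 9 positive values. Orc6, an origin recognition subunit, was called lower, at 1.60, 1.98 and 2.02 CPM in lglRNAi;RasV12-glands, against 2.53, 3.99 and 7.14 CPM in RasV12-glands (log2 fold change -1.29, adjusted p = 0.049), and lost its call without any of 5 of the 6 libraries. Cdc6, which licenses origins, was at 31.5, 37.9 and 39.7 CPM in lglRNAi;RasV12-glands, against 27.6, 23.3 and 27.9 CPM in RasV12-glands (0.47, adjusted p = 0.045), while RnrS, a ribonucleotide reductase subunit, was at 61.2, 79.5 and 76.1 CPM, against 94.4, 102 and 121 CPM in RasV12-glands (-0.55, adjusted p = 0.15).

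Among patterning genes, fz3, a Frizzled receptor gene that Wingless signalling induces, was called higher, at 2.61, 4.78 and 4.39 CPM in lglRNAi;RasV12-glands, against 1.73, 1.30 and 1.20 CPM in RasV12-glands (log2 fold change 1.47, adjusted p = 0.0076). arr, the Wingless co-receptor gene, was at 59.4, 76.8 and 73.5 CPM in lglRNAi;RasV12-glands, against 33.8, 34.4 and 38.4 CPM in RasV12-glands, and brk, the repressor of Dpp targets, was at 308, 309 and 306 CPM, against 155, 132 and 186 CPM in RasV12-glands. Both ended just short of the limit on the fold change, at 0.98 (arr, adjusted p = 0.00024) and 0.97 (brk, adjusted p = 0.0038). The FGF ligand gene bnl, from the list of tracheal genes, was at 1.25, 1.68 and 1.56 CPM in lglRNAi;RasV12-glands, against 0.240, 0.311 and 0.246 CPM in RasV12-glands (2.47, adjusted p = 0.012). None of 13 Notch pathway genes tested was called.

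Of the glue genes 1 abundant transcript was called. Eig71Ee, an ecdysone-induced secreted protein of the gland, was at 2579, 3928 and 3789 CPM in lglRNAi;RasV12-glands, against 5906, 7846 and 9204 CPM in RasV12-glands (log2 fold change -1.16, SE 0.21, adjusted p = 0.0055), beside 63072 CPM in w1118-glands. Without lglRNAi;RasV12 replicate 1 the value was -0.99 and the call was lost. In whole glands, fewer cells that express a gene and less RNA per cell cannot be told apart. The other 11 glue genes were not called. Sgs3, the most abundant of them, was at 42135, 45986 and 49612 CPM in lglRNAi;RasV12-glands, against 47646, 36257 and 28206 CPM in RasV12-glands (0.30, SE 0.24, adjusted p = 0.46), and Sgs1 was at 5569, 8093 and 6720.2 CPM, against 8059.8, 10303 and 11723 CPM in RasV12-glands (-0.56, SE 0.19, adjusted p = 0.079). Summed over the 12 genes the level was 93519 to 108875 CPM in lglRNAi;RasV12-glands, against 94723 to 109660 CPM in RasV12-glands, so the glue program as a whole overlapped.

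In the ecdysone list (27 tested) 1 gene was called higher and 2 lower, with 4 past the adjusted p in each direction. MsrA, a methionine sulfoxide reductase first found as an ecdysone-induced gene, was at 21.8, 23.2 and 27.3 CPM in lglRNAi;RasV12-glands, against 8.77, 10.03 and 10.2 CPM in RasV12-glands (log2 fold change 1.32, adjusted p = 4.7e-05). Blimp-1, a repressor of the ecdysone cascade, was called lower at -1.68 and was at most 0.475 CPM in lglRNAi;RasV12-glands and at most 1.22 CPM in RasV12-glands. br (Broad), an early ecdysone gene needed for glue gene expression, was at 595, 675 and 662 CPM in lglRNAi;RasV12-glands, against 1016, 887 and 1082 CPM in RasV12-glands (-0.63, adjusted p = 0.022), and EcR was at 328, 282 and 293 CPM, against 258, 208 and 222 CPM in RasV12-glands (0.39, adjusted p = 0.15).

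Gland identity genes (13 tested) gave no call. CrebA, the activator of secretory pathway genes, was at 802, 934 and 919.5 CPM in lglRNAi;RasV12-glands, against 671, 518 and 592 CPM in RasV12-glands (log2 fold change 0.58, adjusted p = 0.033). PH4alphaSG2, a prolyl hydroxylase of the gland, was at 341, 435 and 425 CPM in lglRNAi;RasV12-glands, against 704, 746 and 878 CPM in RasV12-glands (-0.96, adjusted p = 0.0013), so gland genes moved in both directions. The gland regulator sage was at 523, 767 and 716 CPM in lglRNAi;RasV12-glands, against 585, 616 and 597 CPM in RasV12-glands (0.16, adjusted p = 0.50). Secretion and unfolded protein response genes (26 tested) had a median of 0.00 and no call. Xbp1, a transcription factor of that response, passed the adjusted p at 2235, 2081 and 2130.3 CPM in lglRNAi;RasV12-glands, against 1809, 1689 and 1465 CPM in RasV12-glands (0.38, adjusted p = 0.029).

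Antimicrobial peptide genes (AMP, 29 in the list, 16 tested) had a median of 2.10, with 13 positive and 3 negative values, and 1 call. Summed over the list, most of it Drs, the groups overlapped, at 1690 to 1824 CPM in lglRNAi;RasV12-glands, against 1385 to 1850 CPM in RasV12-glands. In the dissected part, whose libraries entered the filter on low counts, the list summed to 7212, 9280 and 6797 CPM. How many members passed the filter only through that part was not tested. AttA, an attacin against bacteria, was at 24.9, 1.09 and 2.08 CPM in lglRNAi;RasV12-glands, against 0.747, 0.337 and 0.0821 CPM in RasV12-glands (log2 fold change 4.58, SE 1.18, adjusted p = 0.028). Without lglRNAi;RasV12 replicate 1 its log2 fold change was 2.02 and no AMP gene was called, and AttA also lost its call without any 1 of the RasV12 libraries. AttB, whose sequence is close to that of AttA so that reads can be split between them, was at 36.9, 1.26 and 3.83 CPM in lglRNAi;RasV12-glands, against 3.60, 1.01 and 1.01 CPM in RasV12-glands (2.91, adjusted p = 0.089). lglRNAi;RasV12 replicate 1 was thus far above every other library for both attacins, and it was also the library with the highest hemocyte markers. The part of this library in the median of the list was not tested. Drs did not share this pattern, since lglRNAi;RasV12 replicate 1 was the lowest library of its group.

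Toll and Imd components (32 tested) had a median of 0.13, with Tab2 as the 1 call. Dif and spz5 passed the adjusted p near the limit of the fold change and were chosen after their values were seen. Dif, a transcription factor of the Toll pathway, was at 62.8, 55.7 and 63.9 CPM in lglRNAi;RasV12-glands, against 41.5, 32.3 and 23.7 CPM in RasV12-glands (log2 fold change 0.90, adjusted p = 0.0094), beside 8.24 CPM in w1118-glands. spz5, a Toll ligand gene, was at 18.8, 24.3 and 22.6 CPM in lglRNAi;RasV12-glands, against 12.3, 11.0 and 12.1 CPM in RasV12-glands (0.89, adjusted p = 0.00088), beside 0.642 CPM in w1118-glands. Their groups were separate, whereas the level of Drs overlapped. The factors dl and Rel were at 131 to 186 and 143 to 223 CPM in lglRNAi;RasV12-glands, against 98.2 to 125 and 120 to 142 CPM in RasV12-glands, with adjusted p of 0.083 (dl) and 0.24 (Rel).

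Detoxification genes, the longest list with 47 genes, held the most calls of any list, 5 higher and 3 lower of 44 tested. The share called was 3.32% over all genes tested and 4.99% over those on 2R. Of the 8 called, 7 are cytochrome P450 genes on 2R, and the number of tested members on that arm was not counted. Cyp6w1 was at 3.76, 4.02 and 3.98 CPM in lglRNAi;RasV12-glands, against 0.453, 0.570 and 0.657 CPM in RasV12-glands (log2 fold change 2.80, adjusted p = 2.8e-06). Cyp6a17 (2R:14873953-14875739) was at 0.156, 0 and 0.0934 CPM in lglRNAi;RasV12-glands, against 2.45, 2.98 and 2.85 CPM in RasV12-glands (-4.89). Its neighbour Cyp6a23 (2R:14875829-14877654) moved the other way, at 11.6, 9.03 and 9.15 CPM in lglRNAi;RasV12-glands, against 2.59, 3.68 and 2.87 CPM in RasV12-glands (1.70), and Cyp6a20, a few kilobases on, was again lower (-3.80). These genes are close relatives, and reads between near-identical copies can be split. Cyp6a14 was called higher (1.80, above).

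Cyp12d1-d and Cyp12d1-p are tandem copies whose reads kallisto must also divide. Cyp12d1-d was at 5.75, 3.58 and 3.24 CPM in lglRNAi;RasV12-glands and at 0 in all RasV12 and all w1118 libraries, at least 51.0-fold higher in lglRNAi;RasV12-glands against the highest floor of 3 counts in a RasV12 library. Cyp12d1-p was at 8.11, 5.17 and 5.57 CPM in lglRNAi;RasV12-glands, against 1.49, 2.67 and 1.59 CPM in RasV12-glands (log2 fold change 1.71, adjusted p = 0.0048). GstD2, a glutathione transferase, was the 1 called member that is no P450, at 100.1, 70.7 and 76.6 CPM in lglRNAi;RasV12-glands, against 174, 188 and 171 CPM in RasV12-glands (-1.11, adjusted p = 0.023). The abundant GstD1 and GstD3 had log2 fold changes of -0.14 and -0.42 and did not pass.

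Heat shock genes (18 tested) gave no call, yet 16 of the 18 were lower in value and the median was -1.32. Hsp70Ab was at 1195, 267 and 666 CPM in lglRNAi;RasV12-glands, against 1397, 1319 and 3367 CPM in RasV12-glands (log2 fold change -1.52, SE 0.85, adjusted p = 0.265). Hsp83 was at 1176, 893 and 1049 CPM in lglRNAi;RasV12-glands, against 1413, 1423 and 2051 CPM in RasV12-glands (-0.65, SE 0.33, adjusted p = 0.21). RasV12 replicate 3 was the highest library for both, and the copies of Hsp70 share nearly all their sequence. Without lglRNAi;RasV12 replicate 1, 2 heat shock genes were called lower. In the RNAi machinery list (11 tested) no gene was called. AGO2, the slicer of short interfering RNA, passed the adjusted p as lower, at 1069, 1097 and 1086 CPM in lglRNAi;RasV12-glands, against 1368, 1497 and 1609 CPM in RasV12-glands (-0.46, adjusted p = 0.0093).

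Fat body genes were mostly higher in value, with 9 positive and 2 negative log2 fold changes. By the adjusted p alone 1 of them passed as higher and 1 as lower. apolpp, the precursor of the lipid carrier lipophorin made by the fat body, was at 1690.2, 1701 and 1312 CPM in lglRNAi;RasV12-glands, against 743, 659 and 441 CPM in RasV12-glands (log2 fold change 1.35, SE 0.33, adjusted p = 0.023) and was the 1 call of 11 tested fat body genes. Lsp2, a larval serum protein, was at 6911, 6566 and 5135 CPM in lglRNAi;RasV12-glands, against 3578, 5472 and 3571 CPM in RasV12-glands (0.56, adjusted p = 0.16), and Lsp1beta was at 9434, 9057 and 7053 CPM, against 4959, 6995 and 4835 CPM in RasV12-glands (0.61, adjusted p = 0.16). In w1118-glands apolpp, Lsp2 and Lsp1beta averaged 1719, 11724 and 14739 CPM, so each was lowest in RasV12-glands among the entire glands. apolpp lost its call without RasV12 replicate 2 or 3 or lglRNAi;RasV12 replicate 1 or 2. A few other genes were chosen from the called ones after their values were seen. Hn, the phenylalanine hydroxylase, was at 39.4, 34.7 and 25.7 CPM in lglRNAi;RasV12-glands, against 10.6, 19.0 and 9.58 CPM in RasV12-glands (1.35, adjusted p = 0.012). pug, an enzyme of folate metabolism, had a log2 fold change of 1.08 and the secreted Idgf6 of 1.10. Hn lost its call without RasV12 replicate 3, pug without RasV12 replicate 3 or lglRNAi;RasV12 replicate 1, and Idgf6 without any of 4 libraries. RasV12 replicate 2 had the highest Lsp2, Lsp1beta and Hn of its group, and the part of attached fat body in these values was not tested.

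Genes seen in 1 cross only were few. At or below 3 counts in every library of the other group were 10 called genes that were higher and 4 that were lower in lglRNAi;RasV12-glands. Besides Cyp12d1-d the most abundant higher ones were CG43235, CG17684, CG2528 and CG17217, with means that were at least 20.8-, 20.5-, 8.16- and 4.53-fold above the floor of RasV12-glands. Ada1-1 was at 0 in all lglRNAi;RasV12 libraries and at 4.40, 4.30 and 4.19 CPM in RasV12-glands, at least 46.0-fold lower in lglRNAi;RasV12-glands. CG13215 was at 0.0390, 0.0279 and 0 CPM in lglRNAi;RasV12-glands, against 7.01, 7.07 and 3.20 CPM in RasV12-glands, at least 61.7-fold lower. CG34393 and CG14692, the other 2, were at least 4.77- and 3.14-fold lower, and both lost the call without any 1 of the 6 libraries.

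These genes did not follow the w1118 levels in 1 way. Ada1-1 averaged 0.491 CPM in w1118-glands and CG13215 was at 0 there. A pair of neighbours chosen after their values were seen, phr (2R:7825289-7827319), the DNA photolyase, and CG18853 (2R:7829062-7830429), were present in lglRNAi;RasV12- and w1118-glands and nearly absent from RasV12-glands. phr was at 13.2, 11.8 and 12.5 CPM in lglRNAi;RasV12-glands, against 0.187, 0.389 and 0.301 CPM in RasV12-glands, beside 8.94 CPM in w1118-glands. CG18853 was at 13.2, 13.0 and 13.4 CPM in lglRNAi;RasV12-glands, against 0.0533, 0 and 0.575 CPM in RasV12-glands, beside 11.3 CPM in w1118-glands. In the opposite pattern the neighbours CG5568 and CG18586 on 3L were at most 0.196 and 0.436 CPM in lglRNAi;RasV12-glands, against at least 3.47 and 6.24 CPM in RasV12-glands, and averaged 0.102 and 0.228 CPM in w1118-glands.

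Called genes were more frequent on chromosome 2, which carries the RNAi insertion. Of 3467 genes tested on chromosome 2, 161 (4.64%) were called, against 138 of 5545 (2.49%) elsewhere. Arm by arm the share was 4.25% on 2L, 4.99% on 2R, 2.56% on 3L, 2.87% on 3R and 1.92% on X. The difference held among genes above 1 CPM in both groups, with 3.51% on chromosome 2 and 1.97% elsewhere, and was wider among the others, with 9.54% and 5.05%. The median log2 fold change was 0.003 on chromosome 2 and 0.016 elsewhere, and by arm it was between -0.015 on 3R and 0.112 on chromosome 4, with 0.075 on X. Neighbouring genes are not independent, and these shares are given as a description.

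**Figure D5:**
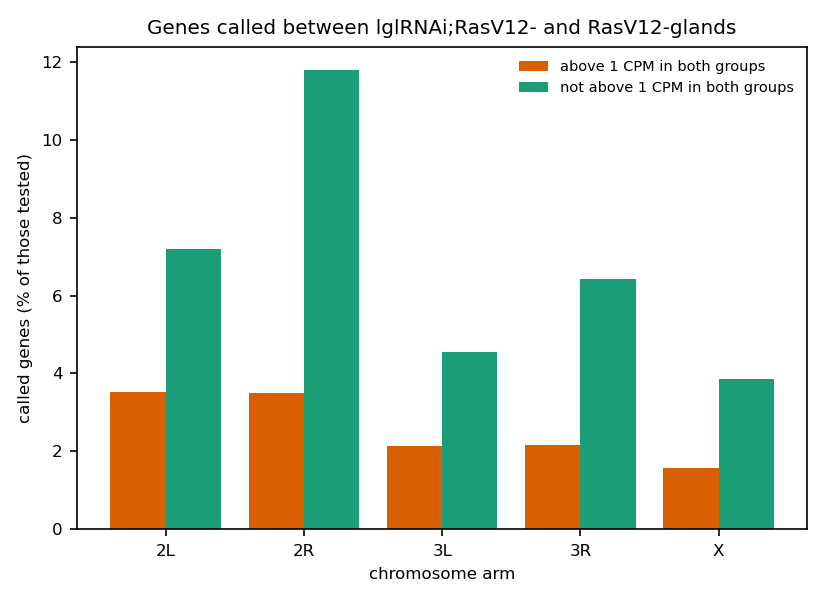
Share of tested genes called between lglRNAi;RasV12- and RasV12-glands on the 5 large chromosome arms, in percent, for genes above 1 CPM in both groups (left bar of each pair) and the others (right bar). Both bars are highest on the arms of chromosome 2, with 11.8% for the less expressed genes on 2R.

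Called genes also lay next to each other. Another called gene was within 10000 base pairs for 71 of the 299 called genes (23.7%), against 919 of 8713 genes that were not called (10.5%). Of the 46 neighbouring pairs, 36 moved in the same direction and 10 in opposite directions, and 2 pairs, CG42362 with CG42363 and CG2217 with CG42740, had identical counts in all 6 libraries. Examples are Rab9 with CG10237 on 2L, CG4563 with CG13579 on 2R and TotA with TotC on 3R. CG13579 was at 0.0975, 0.0559 and 0.0622 CPM in lglRNAi;RasV12-glands, against 3.92, 3.26 and 2.44 CPM in RasV12-glands, and CG4563 was at 0.0975, 0.0279 and 0.0311 CPM, against 3.15, 3.16 and 1.18 CPM in RasV12-glands. Overlapping or adjacent genes can share reads, since strand was not used in counting as far as the sources state.

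A number at the end of the deposited tables' names, whose meaning is not given in the sources used here, was shared by the 3 lglRNAi;RasV12 libraries and RasV12 replicate 1 and differed in RasV12 replicates 2 and 3. Within the shared number only RasV12 replicate 1 was left as a reference, and its spread was taken to be that of the other groups. All 299 called genes then had the same direction, 265 of them an absolute log2 fold change of at least 1, and the median absolute change of the 299 genes was 1.50, against 1.46 over all libraries. Among those that fell below 1 were Myc (0.76), chinmo (0.65), scyl (0.91), Eig71Ee (-0.80) and Orc6 (-0.46). With fewer libraries 37 genes were called higher and 23 lower, and 56 of these 60 were also called over all libraries. The 299 genes were selected by the comparison of all libraries, and the 3 lglRNAi;RasV12 libraries and RasV12 replicate 1 enter both comparisons. Their likeness was thus largely set in advance, and it is no independent check.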

How the data were processed

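Poly(A) RNA of entire salivary glands was sequenced by the authors, who pseudoaligned the reads with kallisto 0.44.0 to Drosophila transcripts and deposited estimated counts and TPM for each of 30503 transcripts and library. The deposited estimated counts are expected counts, fractional where transcripts share reads and not normalized, and TPM was only checked to sum to 1000000. Their sleuth results were not used here. For this comparison 30279 transcripts were matched by identifier to the Ensembl annotation of dm6, summed to 13825 genes and rounded. The 224 unmatched transcripts held 0.322% to 0.359% of the counts of the 6 libraries.

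Genes were tested in R 4.3.3 with edgeR 4.0.16 (quasi-likelihood test, TMM, minimum count of 10 by group, all 12 libraries in the fit, Benjamini-Hochberg over 9012 genes). Alternatives were DESeq2 1.42.0, other scaling, other filters, the 6 libraries alone, each library left out, a replicate block, and the libraries with the shared number. CPM are TMM-normalized. The test was tested on simulated data. p-values measure the spread between these pools of glands.

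Named were l(2)gl, Ras85D, Drs and tio, the 15 called genes with the largest change per direction above 1 CPM in both groups and with separate libraries, the 5 most abundant per direction at or below 3 counts in every library of the other group, called members of lists, and up to 3 abundant members that were not called. Others were chosen after their values were seen. They are Thor, Lk6, crc, Xbp1, arr, Dif, spz5, upd3, aos, Debcl, Sgs1, scyl, pio, Trpm, NT5E-2, Myo61F, Hn, pug, Idgf6, phr, CG18853, CG5568, CG18586, CG4563 and CG13579. The comparison, its members and the gene lists were chosen with earlier results of these data known.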

Additional observations from a re-analysis of the deposited data

How the results depend on the processing

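The 182 genes called higher and 117 called lower numbered between 157 and 207 higher and between 99 and 153 lower with DESeq2's size factors or library size in edgeR, DESeq2's Wald test, no filter, a minimum count of 50 or the 6 libraries alone. Leaving out each library gave 110 to 160 higher and 72 to 133 lower over all genes, and among genes above 1 CPM in both groups 82 to 121 higher and 47 to 85 lower. Above 5 CPM in both groups 69 were higher and 31 lower. Within the shared file number 37 higher and 23 lower were called over all genes, 26 and 18 above 1 CPM in both groups, and 5 and 1 in the gene lists, where 3 libraries faced 1. In the lists 7 lower genes became 3 to 7 on leaving out a library. Replicate numbers were not taken as pairs. Deviations of same-numbered libraries correlated at 0.08, -0.24 and 0.38, against -0.46 to 0.39 for the other combinations. So few values cannot exclude a pairing. With a replicate block 196 genes were higher and 116 lower (12 libraries) or 170 and 138 (6 libraries), with 13 lower genes in the lists. l(2)gl kept its direction in all 15 alternatives, with log2 fold changes of -0.77 to -0.59 on leaving out a library and adjusted p up to 0.0607, and -0.67 (adjusted p = 0.217) within the shared file number. Of 87 other named genes that were called, 34 kept the call in every alternative tested and none changed direction. Of the uncalled ones, tio ranged between -0.02 (without lglRNAi;RasV12 replicate 1) and 3.60 (without RasV12 replicate 2) on leaving out a library, and Mmp1 and Sgs3 reversed to -0.05 and -0.07 within the shared file number. The cause of these changes was not tested beyond the smaller number of libraries.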
